A study of Mus musculus with 27 samples.

Results

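The response to the synthetic compound called GW was compared between mouse microglia and mouse hepatocytes in 12 of the 27 libraries of the series. The 4 groups were GW-treated microglia, vehicle-treated microglia, GW-treated hepatocytes and vehicle-treated hepatocytes, with 3 libraries each. The cells were primary cultures without a stated genotype, strain or age: microglia were shaken off mixed glia and hepatocytes were plated on collagen. GW was given at 1 µM and the vehicle was ethanol, both for 24 h in serum-free medium. The labels spell the compound GW3596, GW3964 and GW3965, and GW3965 is known as a synthetic activator of LXR, the liver X receptors. The other 15 libraries, of bone marrow macrophages and of the sterol saringosterol, entered no group here.

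Microglia were treated in DMEM/F12 with M-CSF, insulin, transferrin, selenite and fatty-acid-free albumin, and hepatocytes in Williams' E medium without these. Cell type and medium therefore cannot be told apart in any difference below. Nothing in the labels says whether replicates were separate animals or cultures, so the p-values measure only the spread between these libraries. Fewer responding cells and less RNA per responding cell also cannot be told apart in bulk RNA.

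LXRα (Nr1h3) and LXRβ (Nr1h2) are nuclear receptors that pair with a retinoid X receptor and switch on genes of sterol export and fatty acid synthesis when oxidised sterols accumulate. One of their best-known targets is Srebf1, whose product SREBP-1 drives fatty acid synthesis, while the related SREBP-2 drives cholesterol synthesis. In macrophages and microglia, LXR agonists are also known to lower inflammatory genes. In liver, LXR agonists are known mainly for raising fatty acid synthesis and sterol excretion.

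Promoters of some genes described below are shown first. They hold the letters of elements known from studies of LXR and of interferon, and whether either acted through them here was not tested. LXR pairs bind direct repeats spaced by 4 bases (DR4). The DR4 element known from the mouse Abca1 and Srebf1 promoters was searched as TGACC, any 3 bases and AGTAACC on both strands, in the 250 bases before each start that RefSeq (GRCm38.p6) lists for a gene. It stood before at least 1 start of 5 of 27025 genes (0.02%), of which Abca1 and Srebf1 match by construction. The others were Fasn, Acsl3 and 1 uncharacterised locus with no counterpart among the tested genes. The element is in capitals in these upstream sequences, written 5′ to 3′ on the strand of the gene: Abca1 at chr4:53159896-53160145 (minus strand), Srebf1 at chr11:60210472-60210721 (minus), Fasn at chr11:120824548-120824797 (minus) and Acsl3 at chr1:78657575-78657824 (plus). For Srebf1 the table lists 3 starts, and the stretch shown lies before the innermost one, inside the span of the gene given below.
Abca1: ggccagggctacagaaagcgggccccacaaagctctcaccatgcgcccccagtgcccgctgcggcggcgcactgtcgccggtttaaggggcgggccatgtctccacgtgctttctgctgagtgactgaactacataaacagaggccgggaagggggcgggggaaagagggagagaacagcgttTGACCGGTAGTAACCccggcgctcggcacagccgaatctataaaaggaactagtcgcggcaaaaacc
Srebf1: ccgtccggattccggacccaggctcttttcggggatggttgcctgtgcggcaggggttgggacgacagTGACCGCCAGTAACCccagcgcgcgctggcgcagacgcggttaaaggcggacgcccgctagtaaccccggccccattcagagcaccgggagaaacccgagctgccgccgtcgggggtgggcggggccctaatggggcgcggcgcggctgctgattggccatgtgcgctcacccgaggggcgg
Fasn: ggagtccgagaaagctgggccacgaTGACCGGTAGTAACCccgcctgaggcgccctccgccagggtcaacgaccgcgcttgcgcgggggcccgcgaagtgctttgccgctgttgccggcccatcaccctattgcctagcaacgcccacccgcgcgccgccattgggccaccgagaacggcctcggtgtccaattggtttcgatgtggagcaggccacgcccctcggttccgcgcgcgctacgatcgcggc
Acsl3: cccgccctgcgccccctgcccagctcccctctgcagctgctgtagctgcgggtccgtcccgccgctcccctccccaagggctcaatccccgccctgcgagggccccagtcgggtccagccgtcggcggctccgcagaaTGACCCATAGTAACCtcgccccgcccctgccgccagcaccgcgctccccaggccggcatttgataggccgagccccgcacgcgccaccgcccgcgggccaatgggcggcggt

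All 4 genes rose with GW in both cell types, as given below. The letters were chosen with these promoters in view, so the match describes the sequences and is no test. A looser search for AGGTCA, any 4 bases and AGGTCA, with up to 2 mismatches, found a repeat in 2.96% of all genes with a promoter and in 0 of the 14 LXR targets with a promoter in the table. The interferon response element was searched as GAAA, any 2 bases and GAAA on both strands, overlaps allowed. It stood in 3.46% of all genes with a promoter and in 7 of the 16 interferon-stimulated genes with a promoter in the table. It is in capitals in Cxcl10, at chr5:92348890-92349139 (minus), Ifit1, at chr19:34640639-34640888 (plus), and Isg15, at chr4:156200819-156201068 (minus). Ifit1 holds it on the opposite strand. Cxcl10 is not among the 16, because it was listed with the inflammatory mediators.
Cxcl10: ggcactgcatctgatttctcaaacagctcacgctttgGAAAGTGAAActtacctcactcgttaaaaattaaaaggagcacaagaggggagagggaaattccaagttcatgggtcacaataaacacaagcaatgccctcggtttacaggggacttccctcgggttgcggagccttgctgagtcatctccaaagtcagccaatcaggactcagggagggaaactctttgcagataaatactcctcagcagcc
Ifit1: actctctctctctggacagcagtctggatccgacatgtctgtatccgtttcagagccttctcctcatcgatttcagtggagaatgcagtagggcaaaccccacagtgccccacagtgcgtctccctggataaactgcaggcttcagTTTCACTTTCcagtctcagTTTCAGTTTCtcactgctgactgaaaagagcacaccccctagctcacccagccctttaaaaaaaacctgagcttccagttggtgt
Isg15: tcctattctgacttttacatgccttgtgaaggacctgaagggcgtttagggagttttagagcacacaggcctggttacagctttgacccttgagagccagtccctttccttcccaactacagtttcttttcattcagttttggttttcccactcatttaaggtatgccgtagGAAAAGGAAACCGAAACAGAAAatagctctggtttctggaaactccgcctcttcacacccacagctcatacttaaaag

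Those 3 genes fell with GW in microglia, while in hepatocytes Cxcl10 rose and the changes of Ifit1 and Isg15 did not pass the test. A match says nothing about whether a factor was bound.

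The 12 libraries held 31470464 to 40971340 counts in genes. The labelled cell types were checked by the summed CPM of markers (counts scaled to the library total). The 12 macrophage markers summed to 14180 CPM in GW-treated and 14760 CPM in vehicle-treated microglia, against 352 CPM in GW-treated and 352 CPM in vehicle-treated hepatocytes. Nearly all of the hepatocyte sum was Cd68; the 11 other markers summed to 5.46 and 5.24 CPM there, and those of Kupffer cells, the macrophages of the liver, to 1.56 and 1.38 CPM. The 7 homeostatic microglia markers summed in microglia to 169 CPM with GW and 140 CPM with vehicle. Of these Fcrls averaged 97.7 and 68.9 CPM, Cx3cr1 35.1 and 46.8 CPM and P2ry12 20.3 and 11.4 CPM in GW- and vehicle-treated microglia. Gpr34 averaged 9.87 and 6.49 CPM and Tmem119 3.34 and 4.21 CPM there, and Siglech was at 0 in both. In hepatocytes the 7 summed to 74.0 CPM with GW and 79.6 CPM with vehicle. Nearly all of that was Sall1, at 73.9 and 79.5 CPM, against 2.89 and 2.39 CPM in GW- and vehicle-treated microglia. The hepatocyte markers summed in microglia to 19.7 CPM with GW and 122 CPM with vehicle, nearly all of it Ass1, and in hepatocytes to 9634 CPM with GW and 9724 CPM with vehicle. Among them, Hnf4a, a master regulator of hepatocyte identity, was the only 1 of the 10 called in hepatocytes. On the TMM scale used below it averaged 191 CPM in GW-treated and 255 CPM in vehicle-treated hepatocytes (log2 change -0.42 ± 0.06, edgeR adjusted p = 0.000146). By library totals Alb averaged 6870 and 6856 CPM and Ttr 568 and 570 CPM in GW- and vehicle-treated hepatocytes. GW library 2 of the hepatocytes stood apart from the rest on the first principal component of that cell type. It lay at -41.7 against 2 and -1.4 for GW libraries 1 and 3, and vehicle libraries 1 to 3 lay at 24.3, -3.2 and 20.

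The receptors were present in both cell types. In TPM, a length-scaled unit comparable between genes, Nr1h2 averaged 95.8 ± 1.21 in GW-treated and 104 ± 0.612 in vehicle-treated microglia, and 116 ± 4.08 in GW-treated and 117 ± 7.16 in vehicle-treated hepatocytes (SD, n = 3 each). Nr1h3 averaged 26.9 ± 2.26 and 24.3 ± 1.92 TPM in GW- and vehicle-treated microglia, and 61.3 ± 1.23 and 65.5 ± 1.67 TPM in GW- and vehicle-treated hepatocytes. Its partner Rxra lay between 49.6 and 58.4 TPM on average in the 4 groups. From here on, levels are CPM on TMM-scaled library sizes, changes are log2 (GW over vehicle) ± SE from 1 edgeR quasi-likelihood fit of the 12 libraries, and the interaction is the microglial change minus the hepatocyte change. Nr1h3 itself changed by 0.22 ± 0.07 in microglia (edgeR adjusted p = 0.0284), where the GW and vehicle libraries overlapped, and by -0.10 ± 0.07 in hepatocytes (adjusted p = 0.777). The microglial call was lost with plain library totals (adjusted p = 0.14), in the fit of all 27 libraries (0.075) and without GW library 1 or 3 or vehicle library 1 or 3 of microglia (adjusted p between 0.11 and 0.16). Nr1h3 had an interaction of 0.32 ± 0.10 (edgeR adjusted p = 0.032) that did not pass in 9 alternatives. Among these were leaving out GW library 1 or 3 or vehicle library 1 or 3 of microglia. The others that left out a library were those without GW library 2 or 3 or vehicle library 1 of hepatocytes. In all of these the edgeR adjusted p lay between 0.051 and 0.13. For Nr1h2 the interaction was -0.03 ± 0.07, with a 95% interval of -0.18 to 0.11.

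GW changed far more genes in microglia than in hepatocytes. Of 17830 genes tested, 4373 were called in microglia at an edgeR adjusted p under 0.05 (24.5%), 2154 higher (12.1%) and 2219 lower (12.4%). In hepatocytes 172 were called (0.965%), 109 higher (0.611%) and 63 lower (0.353%), or 338 (186 higher and 152 lower) with the replicate number as a block. Changes of at least 2-fold were called for 221 genes up and 477 down in microglia, against 25 up and 3 down in hepatocytes. The spread between replicates was close in both, with a biological coefficient of variation of 0.0623 over microglial and 0.0659 over hepatocyte libraries.

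The interaction was called for 2244 genes (12.6%), 1238 with a higher (6.94%) and 1006 with a lower (5.64%) change in microglia. Tested against a 2-fold difference, 81 passed (0.454%). Scaling by plain library totals turned this split to 810 higher and 1547 lower and moved the median interaction of all genes to -0.07. Among the 11090 genes with a mean of at least 1 CPM in each cell type, called expressed in both, the interaction was called for 2019 (18.2%), 1159 higher (10.5%) and 860 lower (7.75%). The minimum was applied to the mean over GW and vehicle libraries, so some genes met it through 1 of the groups: in microglia 64 genes lay under 1 CPM with GW and 67 with vehicle, and in hepatocytes 27 and 49. Among the genes described below these are Inhba, Cxcl1 and Cxcl10 (under 1 CPM in GW-treated microglia) and Apoc4, Tlcd1, Acat3 and Slc38a3 (in vehicle-treated microglia). Abcg1 and Acod1 lay under it in vehicle-treated hepatocytes. The rank of all these genes by size of the difference depends on that minimum. In the 11090 genes GW called 3558 in microglia (32.1%) and 133 in hepatocytes (1.2%). Across these genes the changes in the 2 cell types correlated at a Pearson r of 0.182, a description only since genes are not independent. Of the 133 called in hepatocytes, 102 were also called in microglia: 57 rose in both, 21 fell in both, and 24 moved in opposite directions. The 57 shared rises had a median of 0.69 in microglia and 0.47 in hepatocytes, and 38 of them were larger in microglia. A further 1060 genes rose in microglia with a larger change there by the interaction test and no call in hepatocytes (median 0.37 in microglia, -0.03 in hepatocytes), and 796 fell in the same way (median -0.53 and -0.01).

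**Figure D1:**
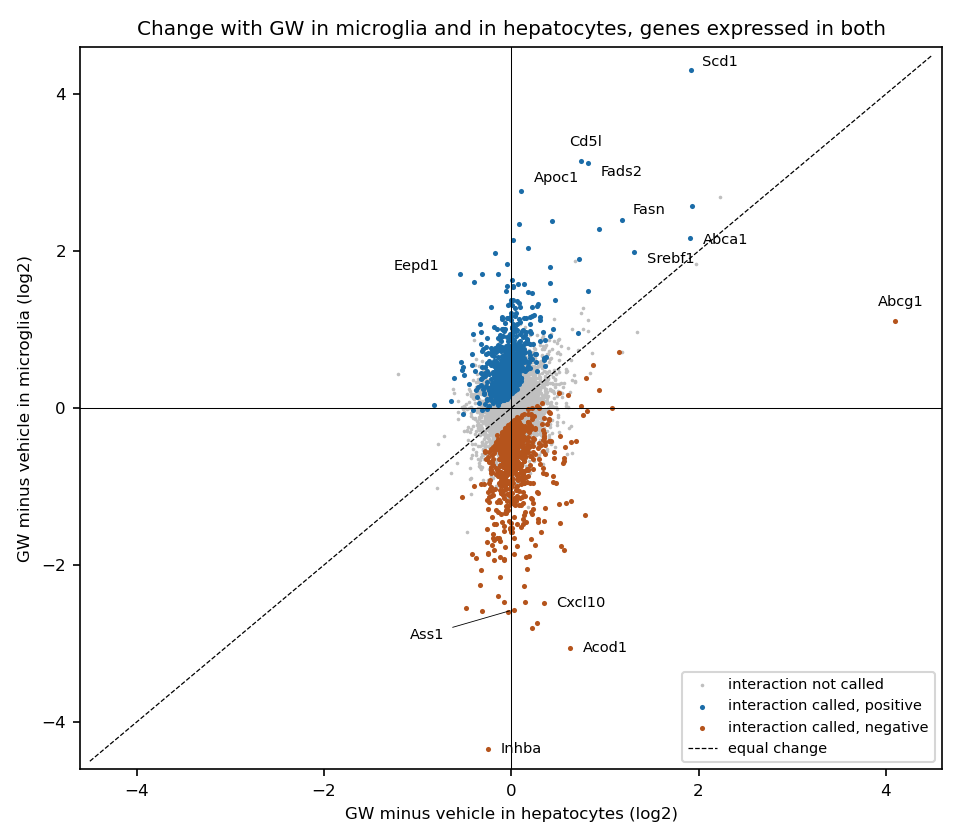
Each point is 1 of the 11090 genes expressed in both cell types, placed by its log2 change with GW in microglia (vertical) and in hepatocytes (horizontal). Coloured points passed the interaction test; they spread along the vertical axis, from Scd1 at 4.30 to Inhba at -4.34 in microglia, while nearly all stay close to 0 in hepatocytes. Abcg1 lies on the other side of the line of equal change, at 1.11 in microglia and 4.09 in hepatocytes.

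Of 20 LXR targets listed, 13 were expressed in both cell types. In microglia 12 of the 13 rose and none fell, with a median change of 1.38, and in hepatocytes 6 rose and none fell, with a median of 0.40; over all 11090 genes the medians were 0.01 and -0.01. The interaction was higher for 9 of them and lower for 1, Abcg1. The lower count was 0 of 9 members with a minimum of 5 CPM in both cell types, and 2 with the replicate block or without GW library 2 of hepatocytes. Among all genes expressed in both, 16.9% were called higher and 15.2% lower in microglia, and 0.784% higher and 0.415% lower in hepatocytes. For the interaction 10.5% were called higher and 7.75% lower. The same shares apply to every list below.

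Abca1 (chromosome 4, 53030787 to 53159895), which moves cholesterol and phospholipid out of the cell, responded strongly in both cell types. It stood at 3508, 3559 and 3649 CPM in GW-treated against 810, 791 and 779 CPM in vehicle-treated microglia. In hepatocytes it stood at 206, 192 and 202 CPM with GW against 48.7, 54.9 and 55.6 CPM with vehicle. The groups did not overlap in either cell type. Its change was 2.17 ± 0.04 in microglia (edgeR adjusted p = 6.12e-24) and 1.91 ± 0.05 in hepatocytes (adjusted p = 1.87e-21), and the interaction was 0.26 ± 0.06 (adjusted p = 0.00486). That interaction was lost with plain library totals (0.18, adjusted p = 0.062) and in the fit of all 27 libraries (adjusted p = 0.17).

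Abcg1 (chromosome 17, 31057675 to 31117988), a sterol transporter that loads cholesterol onto lipoproteins, had the opposite balance. It stood at 837, 812 and 824 CPM in GW-treated against 366, 388 and 390 CPM in vehicle-treated microglia, a change of 1.11 ± 0.05 (edgeR adjusted p = 4.02e-17). In hepatocytes it was nearly silent, at 2.04, 1.69 and 2.5 CPM with GW against 0.13, 0.09 and 0.14 CPM with vehicle, a change of 4.09 ± 0.23 (adjusted p = 5.77e-13). The interaction was -2.98 ± 0.25 (adjusted p = 1.07e-09). The hepatocyte value rests on 267 counts in the GW and 16 counts in the vehicle libraries, so Abcg1 met the minimum in hepatocytes through the GW libraries alone. GW-treated hepatocytes stayed far below vehicle-treated microglia.

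Apolipoprotein genes responded in microglia. Apoe, the main lipid carrier of the brain, stood at 25871, 25952 and 25036 CPM in GW-treated against 9370, 10137 and 10026 CPM in vehicle-treated microglia. In hepatocytes it stood at 5642, 5406 and 5796 CPM with GW against 5958, 5245 and 5690 CPM with vehicle, and the groups overlapped. The changes were 1.38 ± 0.04 in microglia (edgeR adjusted p = 1.31e-19) and -0.00 ± 0.04 in hepatocytes (adjusted p = 1), with an interaction of 1.38 ± 0.06 (adjusted p = 1.53e-15). Apoc1, which lies in the same gene cluster, had the largest positive interaction of all genes expressed in both, at 2.66 ± 0.07 (adjusted p = 1.66e-20). Apoc1 stood at 61.0, 61.5 and 60.8 CPM in GW-treated and 8.18, 9.42 and 9.31 CPM in vehicle-treated microglia, and at 571, 596 and 576 CPM in GW-treated and 527, 532 and 558 CPM in vehicle-treated hepatocytes. The level of GW-treated microglia stayed well below that of hepatocytes. The phospholipid transfer protein gene Pltp changed by 2.04 ± 0.05 in microglia and 0.18 ± 0.06 in hepatocytes (interaction 1.85 ± 0.08, adjusted p = 4.91e-16).

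Other LXR targets filled the range between. Lpcat3, which puts polyunsaturated chains into phospholipids, changed by 1.90 ± 0.05 in microglia and 0.72 ± 0.05 in hepatocytes, both called (interaction 1.17 ± 0.07, edgeR adjusted p = 2.91e-13). Cd5l, a secreted scavenger protein, changed by 3.15 ± 0.17 in microglia (adjusted p = 2.2e-13) and 0.75 ± 0.22 in hepatocytes (adjusted p = 0.148), where it lay at 1.72, 2.15 and 2.54 CPM with GW and 0.73, 1.53 and 1.58 CPM with vehicle. Its hepatocyte rise was called with the replicate block (adjusted p = 0.012). The phagocytic receptor Mertk changed by 0.83 in microglia (adjusted p = 1.12e-12) and by 0.17 in hepatocytes (adjusted p = 0.789). Lpl, the lipoprotein lipase, changed by 0.71 ± 0.08 in microglia (adjusted p = 3.74e-05) and 1.18 ± 0.19 in hepatocytes (adjusted p = 0.0101), with an interaction of -0.47 ± 0.21 that did not pass (adjusted p = 0.207); its hepatocyte level was 4.77 CPM with GW and 2.14 CPM with vehicle. Mylip, a ubiquitin ligase that is a standard LXR target, changed by 1.55 ± 0.06 in microglia (adjusted p = 3.16e-17) and stayed at or under 0.28 CPM in all hepatocyte libraries. Abcg5 and Abcg8, the sterol exporters of liver and gut, had 0 counts in microglia and averaged 2.06 against 1.57 CPM and 3.40 against 2.30 CPM in GW- and vehicle-treated hepatocytes, with adjusted p-values of 0.798 and 0.493.

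Fatty acid synthesis genes rose in microglia, and 7 of them also in hepatocytes. Of 18 listed genes 15 were expressed in both; 15 rose in microglia and 7 in hepatocytes, none fell in either, and 13 had a higher interaction. The medians were 1.01 in microglia, 0.22 in hepatocytes and 0.76 for the interaction. All 4 genes with the DR4 letters rose in both cell types.

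The regulator Srebf1 (chromosome 11, 60199089 to 60222581) stood at 404, 408 and 403 CPM in GW-treated against 102, 103 and 103 CPM in vehicle-treated microglia. In hepatocytes it stood at 251, 226 and 268 CPM with GW against 108, 91.2 and 101 CPM with vehicle, so the vehicle levels were close in the 2 cell types and the GW levels were not. The changes were 1.98 ± 0.06 in microglia (edgeR adjusted p = 6.61e-20) and 1.31 ± 0.06 in hepatocytes (adjusted p = 5.51e-15), with an interaction of 0.67 ± 0.08 (adjusted p = 5e-07). Fasn, the fatty acid synthase (chromosome 11, 120805846 to 120824547), stood at 544, 563 and 550 CPM with GW and 109, 103 and 104 CPM with vehicle in microglia, and at 141, 127 and 156 CPM with GW and 63.3, 59.5 and 63.4 CPM with vehicle in hepatocytes. Its changes of 2.39 ± 0.06 in microglia and 1.19 ± 0.05 in hepatocytes gave an interaction of 1.2 ± 0.08 (adjusted p = 3.51e-12). Acsl3, which activates long-chain fatty acids, was named for its promoter after its values were seen. It averaged 195 CPM in GW-treated and 40.1 CPM in vehicle-treated microglia, against 52.1 and 27.2 CPM in GW- and vehicle-treated hepatocytes, with changes of 2.28 ± 0.06 and 0.94 ± 0.06 (interaction 1.35 ± 0.09, adjusted p = 3.13e-12).

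The desaturases introduce double bonds into fatty acids. Scd1 (chromosome 19, 44394455 to 44407879) stood at 122, 118 and 117 CPM in GW-treated against 5.98, 5.71 and 6.4 CPM in vehicle-treated microglia. In hepatocytes it was far more abundant, at 3234, 2718 and 3240 CPM with GW against 779, 794 and 850 CPM with vehicle. The log2 changes were 4.30 ± 0.08 and 1.92 ± 0.05, and the interaction was 2.38 ± 0.09 (edgeR adjusted p = 2.85e-15). Scd2 had the reverse abundance and no called difference in response: 2.68 ± 0.09 in microglia, at 4331, 4165 and 4109 CPM with GW and 689, 633 and 638 CPM with vehicle, and 2.23 ± 0.16 in hepatocytes, at 12.3, 8.58 and 13.8 CPM with GW and 2.5, 2.35 and 2.59 CPM with vehicle (interaction 0.46 ± 0.20, adjusted p = 0.194). The Scd genes are near-identical copies, and reads could be split among them, so the low hepatocyte level of Scd2 and the low microglial level of Scd1 are uncertain. Fads2, which desaturates polyunsaturated fatty acids, changed by 3.12 ± 0.07 in microglia and 0.82 ± 0.06 in hepatocytes (interaction 2.30 ± 0.10, adjusted p = 2.36e-14). It stood at 213, 189 and 196 CPM with GW and 22.7, 23.5 and 22.7 CPM with vehicle in microglia, and at 199, 173 and 210 CPM with GW and 112, 100 and 118 CPM with vehicle in hepatocytes, so GW-treated cells of both types reached overlapping levels.

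Enzymes early in the route differed. Acaca, the acetyl-CoA carboxylase, changed by 1.01 ± 0.08 in microglia and 0.76 ± 0.08 in hepatocytes, both called, and the interaction of 0.25 ± 0.12 did not pass (edgeR adjusted p = 0.196; 95% interval 0.01 to 0.49). Acly, which makes acetyl-CoA from citrate, changed by 0.92 ± 0.04 in microglia (adjusted p = 5.81e-17) and by 0.05 ± 0.04 in hepatocytes (adjusted p = 0.824), with an interaction of 0.87 ± 0.05 (adjusted p = 1.78e-12). The elongase Elovl5 changed by 1.28 ± 0.04 and 0.22 ± 0.04, with an interaction of 1.07 ± 0.06 (adjusted p = 5.22e-13). Mid1ip1, which activates the carboxylase, was raised by 0.96 ± 0.05 in microglia and 0.71 ± 0.05 in hepatocytes.

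**Figure D2:**
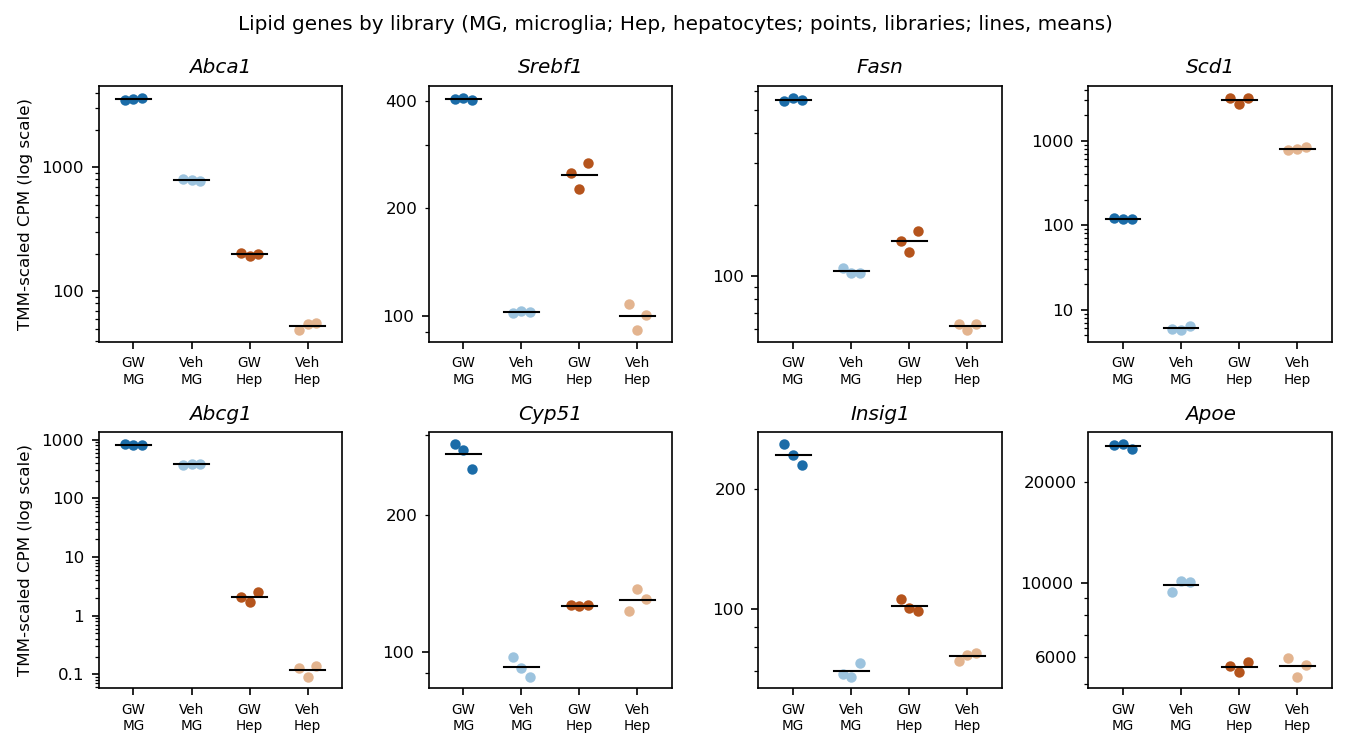
Level of 8 lipid genes in each of the 12 libraries (TMM-scaled CPM, log axis; panels have their own scale), with GW left of vehicle and microglia (MG) left of hepatocytes (Hep). Abca1, Srebf1, Fasn, Scd1, Abcg1 and Insig1 are higher with GW in every library of both cell types; for Cyp51 and Apoe the GW and vehicle libraries of hepatocytes overlap.

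Cholesterol synthesis genes rose in microglia. All 21 listed enzymes were expressed in both; 20 rose in microglia (median 1.00), none were called in hepatocytes (median 0.05), and 19 had a higher interaction (median 1.06). In hepatocytes edgeR gave 5 of the 21 an unadjusted p under 0.05 (8.96% of all genes expressed in both), and 0 were called by limma-voom, by DESeq2 or in any other alternative run. Cyp51, the lanosterol demethylase (chromosome 5, 4081145 to 4104746), stood at 286, 278 and 253 CPM in GW-treated against 97.7, 92.5 and 88.4 CPM in vehicle-treated microglia, and at 127, 126 and 127 CPM in GW-treated against 123, 138 and 131 CPM in vehicle-treated hepatocytes. The microglial groups were apart and those of hepatocytes overlapped. Its changes were 1.55 ± 0.05 in microglia (edgeR adjusted p = 4.30e-19) and -0.04 ± 0.05 in hepatocytes (adjusted p = 0.902), and the interaction was 1.60 ± 0.07 (adjusted p = 2.57e-15). Sc5d, a late desaturase of the sterol ring, changed by 1.59 ± 0.05 in microglia and 0.07 ± 0.05 in hepatocytes, and Acat2, a thiolase at the entry of the route, by 1.56 ± 0.07 and 0.02 ± 0.07. Lbr, a sterol reductase that is also a lamin receptor, was the 1 member not called in microglia (0.18, adjusted p = 0.0633). Acat3, a further thiolase, had an interaction of 2.14 ± 0.19 (adjusted p = 2.42e-09), with 1.97 ± 0.18 in microglia, where it lay at 2.95 to 4.54 CPM with GW and 0.74 to 1.06 CPM with vehicle, and -0.17 ± 0.07 in hepatocytes.

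Of 10 genes of sterol uptake and its control expressed in both, 5 rose in microglia and 1 in hepatocytes, and 5 had a higher interaction. The shares over all genes expressed in both were 16.9%, 0.784% and 10.5%. Insig1, which holds SREBPs in the endoplasmic reticulum, was the gene of this group called in both cell types, at 1.80 ± 0.05 in microglia and 0.42 ± 0.05 in hepatocytes (adjusted p = 6.44e-06 in hepatocytes, or 0.15 in the fit of all 27 libraries). Its level was 259, 243 and 229 CPM in GW-treated against 68.7, 67.6 and 73.3 CPM in vehicle-treated microglia, and 106, 100.3 and 98.6 CPM in GW-treated against 74.1, 76.5 and 77.7 CPM in vehicle-treated hepatocytes. The GW libraries were above the vehicle libraries in both cell types, and the interaction was 1.39 ± 0.07 (edgeR adjusted p = 3.37e-14). Srebf2 changed by 0.48 ± 0.05 in microglia (adjusted p = 5.86e-09) and by -0.11 ± 0.05 in hepatocytes (adjusted p = 0.546).

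Most listed genes of fatty acid oxidation and targets of the nuclear receptor PPARα also rose in microglia. Of 12 genes expressed in both, 10 rose there and 1 in hepatocytes, and 9 had a higher interaction. The shares over all genes expressed in both were 16.9%, 0.784% and 10.5%. Angptl4, an inhibitor of lipoprotein lipase, changed by 1.70 ± 0.13 in microglia (edgeR adjusted p = 1.27e-08), at 13, 13.4 and 15.4 CPM with GW and 2.95, 5.06 and 4.94 CPM with vehicle. In hepatocytes it lay at 217, 203 and 219 CPM with GW and 276, 257 and 258 CPM with vehicle, a change of -0.31 ± 0.08 that did not pass (adjusted p = 0.0717) but did with the replicate block (adjusted p = 0.00021). Hadhb, a subunit of the trifunctional β-oxidation enzyme, changed by 0.74 ± 0.05 and -0.06 ± 0.05, and Cpt1a, which admits fatty acids to mitochondria, by 0.64 ± 0.05 and -0.01 ± 0.05. Ehhadh, of peroxisomal oxidation, was the member called in both, at 0.64 in microglia and 0.43 in hepatocytes. The hepatocyte count was 0 in the fit of all 27 libraries and without GW library 1 or vehicle library 1 or 3 of hepatocytes.

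Of 10 triglyceride and droplet genes expressed in both, 3 rose and 1 fell in microglia (median 0.02). In hepatocytes 2 rose and 0 fell (median -0.03). A higher interaction was called for 2 and a lower one for 0. Of all genes expressed in both, 16.9% rose and 15.2% fell in microglia, and 0.784% rose in hepatocytes. The microglial fall was lost with RLE size factors, among other alternatives. Lpin1, a phosphatidate phosphatase, rose in both cell types (1.38 ± 0.06 and 0.47 ± 0.06, interaction 0.91 ± 0.08, edgeR adjusted p = 4.82e-09). Gpam, the first acyltransferase of the route, also rose in both, by 0.55 ± 0.06 in microglia and 0.31 ± 0.05 in hepatocytes, with an interaction of 0.24 ± 0.08 (adjusted p = 0.062, or 0.028 with the replicate block). In the fit of all 27 libraries the hepatocyte rise of Gpam did not pass (adjusted p = 0.06). The droplet coat gene Plin2 changed by 0.78 ± 0.04 in microglia (adjusted p = 4.15e-15) and by 0.07 ± 0.04 in hepatocytes (adjusted p = 0.716). Of 14 lysosomal genes 7 rose and 1 fell in microglia, and none rose and 1 fell in hepatocytes, against 0.415% of all genes expressed in both that fell there. The lysosomal fall in hepatocytes was lost in the fit of all 27 libraries and without GW library 1 or vehicle library 3 of hepatocytes, and that in microglia numbered 1 to 3 over the alternatives (2 without vehicle library 1 of microglia or vehicle library 2 of hepatocytes). The cathepsin gene Ctsd changed by 0.46 ± 0.04 in microglia and 0.01 ± 0.04 in hepatocytes (interaction 0.45 ± 0.05, adjusted p = 6.2e-07).

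**Figure D3:**
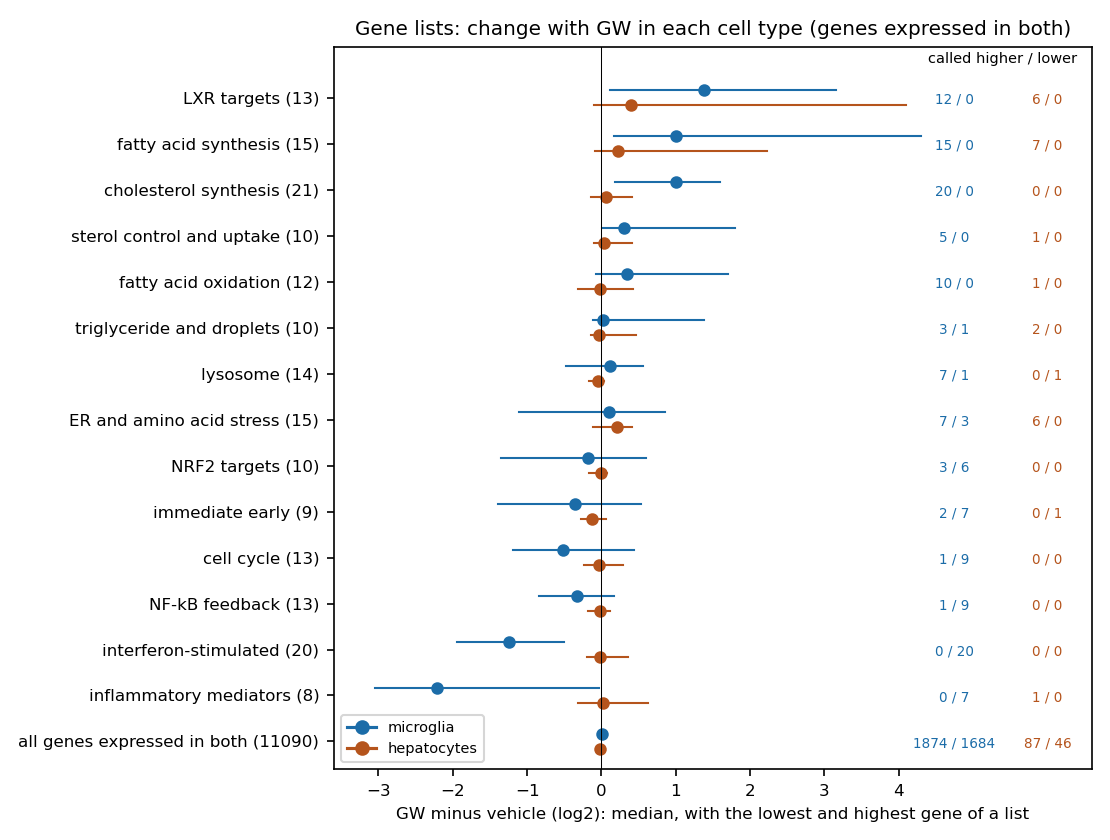
Gene lists, with the number of members expressed in both cell types in brackets. The fatty acid oxidation list also holds targets of PPARα. Points are the median log2 change with GW in microglia (above) and hepatocytes (below), lines run from the lowest to the highest member, and the counts give members called higher and lower. LXR targets and fatty acid synthesis have positive medians in both cell types, cholesterol synthesis at 1.00 in microglia and 0.05 in hepatocytes, and interferon-stimulated genes at -1.24 and -0.02.

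Responses of like size in the 2 cell types were named where both changes were called, the interaction was not, and its 95% interval lay within 0.5 of 0. There were 11 such rises and 6 such falls. Besides Acaca, the largest rises were Abcb4, a phospholipid transporter of the bile canaliculus, with 0.46 ± 0.09 in microglia and 0.58 ± 0.08 in hepatocytes, and Arl4c, a small GTPase known as an LXR target, with 0.58 ± 0.06 and 0.40 ± 0.08. Acsl4, which activates arachidonic acid, changed by 0.55 ± 0.07 and 0.38 ± 0.07. The hepatocyte call of Acsl4 was lost without GW library 2 or 3 or vehicle library 1 or 3 of hepatocytes (adjusted p between 0.056 and 0.067), and that of Arl4c when each cell type was fitted alone (adjusted p = 0.11) and with limma-voom (adjusted p = 0.089). The largest falls were a pair of numbered copies of 1 locus, 9930111J21Rik1 and 9930111J21Rik2, whose reads may not be separable (-0.46 and -0.33 in microglia, -0.39 and -0.38 in hepatocytes); their hepatocyte calls did not pass in the fit of all 27 libraries (adjusted p = 0.12 and 0.14). Itpr3, a calcium release channel, followed with -0.36 ± 0.07 and -0.28 ± 0.06, and Tgfbr1, a receptor of TGF-β, with -0.32 ± 0.05 and -0.22 ± 0.05. The hepatocyte fall of Itpr3 was lost without GW library 1 or vehicle library 3 of hepatocytes (adjusted p = 0.1 and 0.098) and in the fit of all 27 libraries (0.69). That of Tgfbr1 did not pass in 14 alternatives, among them leaving out any hepatocyte library but vehicle library 1 (adjusted p between 0.073 and 0.19), or any GW library or vehicle library 2 of microglia (adjusted p between 0.059 and 0.07).

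A few genes had a larger log2 rise in hepatocytes. Of the 57 shared rises, 7 had a lower interaction; beside Abcg1 these included the following 3, which were picked after their values were seen. Rnf145, a ubiquitin ligase of sterol control, changed by 0.55 ± 0.06 in microglia and 0.87 ± 0.06 in hepatocytes (interaction -0.32 ± 0.09, edgeR adjusted p = 0.0135). Gramd1b, which carries cholesterol from the plasma membrane inward, changed by 0.72 ± 0.06 and 1.15 ± 0.12 (interaction -0.43 ± 0.13, adjusted p = 0.0282). The fatty acid binding protein gene Fabp5 changed by 0.39 ± 0.05 and 0.80 ± 0.07 (interaction -0.41 ± 0.09, adjusted p = 0.00145). In GW- and vehicle-treated hepatocytes Gramd1b averaged 4.24 and 1.91 CPM, against 86.8 and 52.9 CPM in microglia. Fabp5 averaged 28.4 and 16.4 CPM there, against 1643 and 1257 CPM in microglia. Rnf145 averaged 37.8 and 20.6 CPM, against 75.7 and 51.6 CPM in microglia. All 3 stayed below the level of vehicle-treated microglia in hepatocytes. A further 18 genes rose in hepatocytes with no call in microglia, and the interaction was called for 12 of them. Errfi1, an inhibitor of the EGF receptor and likewise picked after its values were seen, stood at 10.3, 12.1 and 12.8 CPM in GW-treated against 11.4, 12.4 and 10.9 CPM in vehicle-treated microglia, and at 204, 175 and 191 CPM in GW-treated against 120, 108 and 112 CPM in vehicle-treated hepatocytes. Its change was 0.02 ± 0.09 in microglia and 0.75 ± 0.06 in hepatocytes (adjusted p = 3.1e-09; interaction -0.73 ± 0.11, adjusted p = 1.19e-05).

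Opposite calls were made for 24 genes, 12 in each sense, and the interaction was called for each of them in edgeR. With the replicate block these were 36 genes up in microglia and down in hepatocytes and 22 in the other sense, and leaving out 1 library gave 3 to 17 and 9 to 14. Eepd1, known as an LXR target of macrophages that stabilises Abca1 (chromosome 9, 25481547 to 25604110), had the largest such difference up in microglia. It stood at 217, 216 and 222 CPM in GW-treated against 66.1, 68.6 and 65.9 CPM in vehicle-treated microglia, and at 41.5, 37.7 and 37.3 CPM in GW-treated against 56.4, 57.0 and 56.4 CPM in vehicle-treated hepatocytes. The groups were apart in both cell types, in opposite order. The change was 1.71 ± 0.05 in microglia (edgeR adjusted p = 1.31e-20) and -0.54 ± 0.05 in hepatocytes (adjusted p = 4.26e-08), and the interaction was 2.25 ± 0.07 (adjusted p = 6.57e-19).

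The immediate early transcription factor Egr1 changed by 0.53 ± 0.05 in microglia and -0.28 ± 0.05 in hepatocytes (interaction 0.80 ± 0.07, edgeR adjusted p = 2.12e-09), and the histidine lyase gene Hal by 0.55 ± 0.05 and -0.22 ± 0.05 (interaction 0.77 ± 0.07, adjusted p = 5.89e-09). Slc38a3, a glutamine transporter, changed by 0.94 ± 0.30 and -0.41 ± 0.09 and the adhesion receptor gene Adgrg1 by 0.47 ± 0.15 and -0.39 ± 0.10; in microglia Slc38a3 lay at 0.546 to 1.82 CPM and Adgrg1 at 2.5 to 4.28 CPM. These calls depend on single libraries. In hepatocytes Slc38a3 was lost without vehicle library 1 of microglia or without GW library 1 or 2 or vehicle library 1 or 3 of hepatocytes (adjusted p between 0.056 and 0.15). In microglia it was lost without GW library 3 or vehicle library 1 or 3 (adjusted p between 0.084 and 0.15).

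Adgrg1 was lost in hepatocytes without GW library 2 of microglia, or GW library 1 or 2 or vehicle library 1 or 3 of hepatocytes (adjusted p between 0.052 and 0.38). In microglia Adgrg1 was lost without GW library 2 or 3 or vehicle library 2 or 3 (adjusted p between 0.052 and 0.13). Hal was lost in hepatocytes without any hepatocyte library but vehicle library 2, or any GW library or vehicle library 2 of microglia (adjusted p between 0.058 and 0.25). In the fit of all 27 libraries the hepatocyte falls of Slc38a3, Adgrg1, Hal and Egr1 did not pass (adjusted p = 0.39, 0.62, 0.98 and 0.12), nor did the microglial rises of Slc38a3 and Adgrg1 (adjusted p = 0.063 and 0.14). The interaction of Slc38a3 was lost with limma-voom (adjusted p = 0.16) and its hepatocyte fall with DESeq2 (adjusted p = 0.21). limma-voom called neither microglial rise of Slc38a3 and Adgrg1 (adjusted p = 0.28 and 0.21), and that of Adgrg1 was also lost with plain library totals (0.051) and when each cell type was fitted alone (0.061), as was the hepatocyte fall of Hal (0.11).

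Cxcl10, a chemokine that draws T cells and a target of interferon (chromosome 5, 92346638 to 92348889), had the largest difference in the other sense. It stood at 0.85, 0.87 and 0.98 CPM in GW-treated against 4.35, 5.33 and 5.61 CPM in vehicle-treated microglia. In hepatocytes it stood at 189, 185 and 195 CPM with GW against 156, 141 and 148 CPM with vehicle. The change was -2.49 ± 0.14 in microglia (edgeR adjusted p = 9.79e-14) and 0.35 ± 0.05 in hepatocytes (adjusted p = 0.000171, or 0.94 in the fit of all 27 libraries), with an interaction of -2.84 ± 0.15 (adjusted p = 8.93e-14). Steap3, an iron reductase, changed by -0.68 ± 0.06 in microglia and 0.56 ± 0.06 in hepatocytes (interaction -1.24 ± 0.09, adjusted p = 2.19e-11), at 52.9, 52.1 and 53.2 CPM against 80.6, 85.5 and 87.5 CPM and at 66.2, 63.5 and 69.2 CPM against 48.8, 40.5 and 45.8 CPM. Ddit3, the stress factor CHOP, changed by -0.76 ± 0.07 and 0.34 ± 0.07 (interaction -1.1 ± 0.10, adjusted p = 1.51e-09); its hepatocyte call was lost without GW-treated hepatocyte library 2 (adjusted p = 0.061) or vehicle-treated hepatocyte library 3 (adjusted p = 0.056) and in the fit of all 27 libraries (adjusted p = 0.59). Baiap2, which shapes actin-rich protrusions, changed by -0.41 ± 0.07 and 0.69 ± 0.07, and the membrane transporter gene Slc4a11 by -1.22 ± 0.19 and 0.51 ± 0.07, which lay at 0.822 to 3.45 CPM in microglia.

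**Figure D4:**
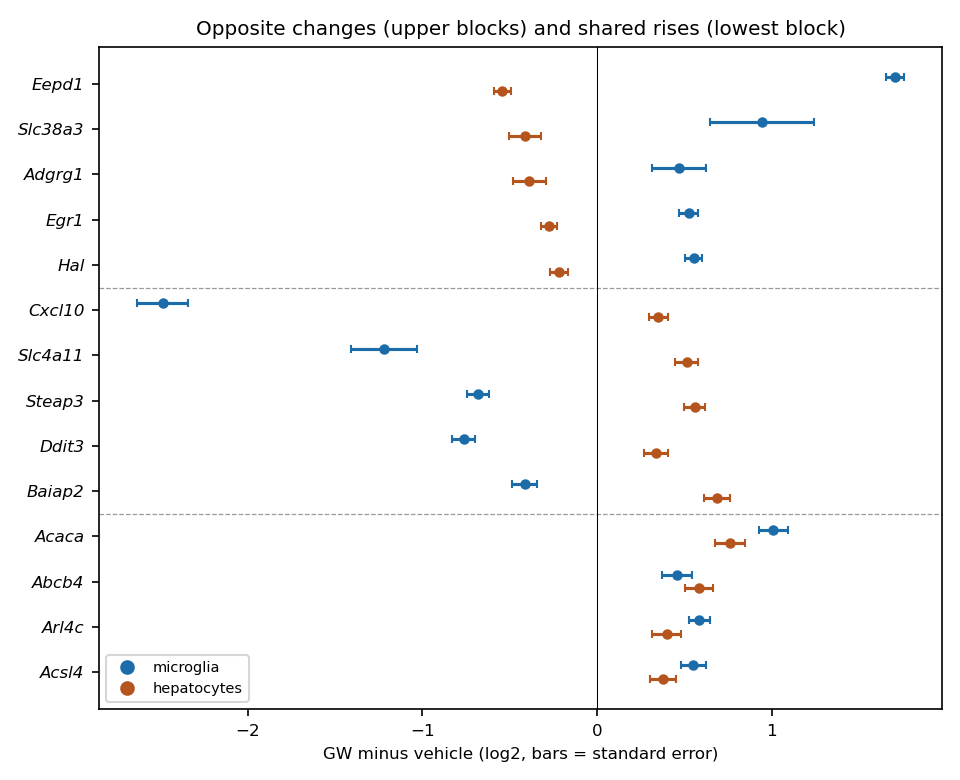
Log2 change with GW (points, with SE bars) in microglia (above in each row) and hepatocytes (below) for the 10 named genes called in opposite directions and, in the lowest block, 4 shared rises. Eepd1 lies at 1.71 in microglia and -0.54 in hepatocytes, Cxcl10 at -2.49 and 0.35, while both points of Acaca, Abcb4, Arl4c and Acsl4 lie between 0.38 and 1.01.

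Interferon-stimulated genes fell in microglia. Of 21 listed, 20 were expressed in both; 20 fell in microglia (median -1.24), none were called in hepatocytes in either direction (median -0.02), and all 20 had a lower interaction (median -1.35). Of all genes expressed in both, 15.2% fell in microglia and 7.75% had a lower interaction. Cxcl10, also a target of interferon, was listed with the inflammatory mediators and rose in hepatocytes, as given above. In the fit of all 27 libraries, which adds the macrophage and saringosterol libraries, 14 of the 20 fell in microglia and only 4 had a lower interaction; in the other alternatives 20 fell and 18 to 20 had a lower interaction. In hepatocytes edgeR gave 4 of the 20 an unadjusted p under 0.05, against 8.96% of all genes expressed in both. There limma-voom and DESeq2 also called 0, the replicate block called 1 higher and a fit with no filter on low counts called 1 lower. The 3 hepatocyte GW libraries lay below the 3 vehicle libraries for 2 genes and above them for 2 (8.91% and 5.46% of all genes expressed in both). Isg15, a ubiquitin-like antiviral protein, stood at 20.3, 29.6 and 25.1 CPM in GW-treated against 77.4, 90.2 and 88.2 CPM in vehicle-treated microglia. In hepatocytes it was more abundant, at 219, 271 and 235 CPM with GW against 260, 252 and 247 CPM with vehicle, and the groups overlapped. The change was -1.77 ± 0.12 in microglia (edgeR adjusted p = 5.75e-07) and -0.07 ± 0.10 in hepatocytes (adjusted p = 0.948), with an interaction of -1.70 ± 0.16 (adjusted p = 2.29e-05).

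Ifit1, which binds foreign RNA, changed by -1.65 ± 0.19 and 0.03 ± 0.16 (interaction -1.69 ± 0.25, edgeR adjusted p = 0.00197). The RNA sensor Ddx58 changed by -1.05 ± 0.07 and -0.08 ± 0.07, Rtp4 by -1.0 ± 0.07 and 0.00 ± 0.07, and the tethering factor Bst2, which holds virus particles at the membrane, by -0.70 ± 0.05 and -0.05 ± 0.05. Xaf1 changed by -1.19 ± 0.08 and -0.01 ± 0.07. In the fit of all 27 libraries the interactions of Ddx58, Rtp4, Bst2 and Xaf1 did not pass (adjusted p = 0.13, 0.42, 0.19 and 0.081), at -0.97, -0.99, -0.65 and -1.18, and neither did the microglial fall of Rtp4 (adjusted p = 0.14).

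Inflammatory mediators also fell in microglia, some of them from a low level. Of 8 expressed in both, 7 fell there (median -2.21), 1 rose in hepatocytes (Cxcl10), and 7 had a lower interaction, against 15.2%, 0.784% and 7.75% of all genes expressed in both. Of the 8, Cxcl1 and Cxcl10 lay under 1 CPM in GW-treated microglia. With a minimum of 5 CPM in both cell types 4 members were tested, of which 3 fell in microglia and 3 had a lower interaction, and none rose in hepatocytes. Acod1, which makes itaconate, stood at 10.6, 11.4 and 11.9 CPM in GW-treated against 95.4, 92.4 and 93.1 CPM in vehicle-treated microglia, a change of -3.05 ± 0.11 (edgeR adjusted p = 1.61e-16); in hepatocytes it lay at 1.03, 1.10 and 2.09 CPM with GW against 0.83, 0.73 and 1.18 CPM with vehicle (0.63 ± 0.23, adjusted p = 0.344). The chemokine Ccl5 changed by -2.81 ± 0.13 in microglia and 0.22 ± 0.15 in hepatocytes (interaction -3.02 ± 0.19, adjusted p = 1.29e-10, or 0.14 in the fit of all 27 libraries). Ccl2, which recruits monocytes, stood at 35.2, 36.4 and 35.2 CPM in GW-treated against 73.1, 81.6 and 83.2 CPM in vehicle-treated microglia, and at 243, 224 and 233 CPM against 227, 240 and 222 CPM in GW- and vehicle-treated hepatocytes, with an interaction of -1.18 ± 0.07 (adjusted p = 2.18e-12). The B-cell chemokine Cxcl13 changed by -2.73 ± 0.23 and 0.27 ± 0.21 (interaction -3.01 ± 0.32, adjusted p = 1.53e-07). Il1b, the classical inflammasome cytokine, changed by -3.13 ± 0.21 in microglia (adjusted p = 2.07e-12) and was at or under 0.25 CPM in every hepatocyte library, so its interaction did not pass (adjusted p = 0.485). Of 13 NF-κB feedback genes, 9 fell and 1 rose in microglia and none were called in hepatocytes, where 0 had an unadjusted edgeR p under 0.05 and limma-voom and DESeq2 called 0. The single rise was lost in 9 alternatives, among them leaving out any GW library or vehicle library 1 or 2 of microglia. The adaptor gene Tnip1, which restrains NF-κB, changed by -0.65 ± 0.05 and 0.02 ± 0.05.

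**Figure D5:**
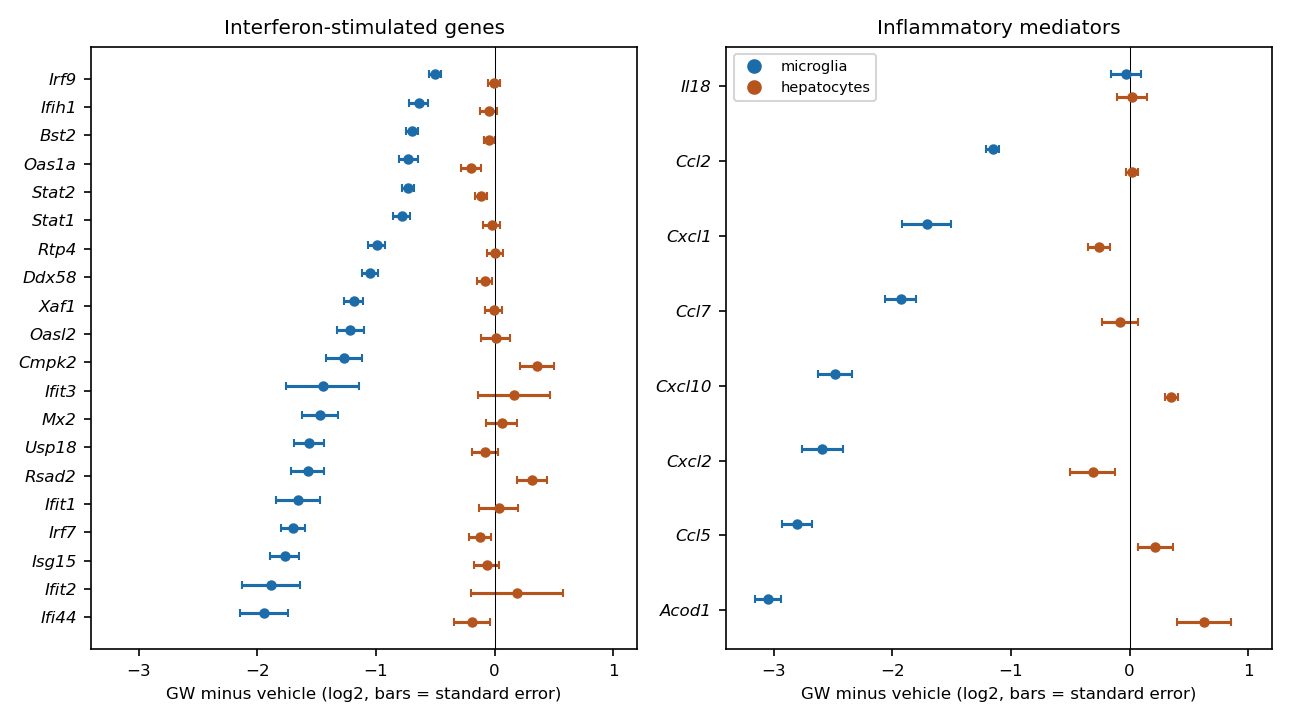
Log2 change with GW (points, with SE bars) in microglia (above in each row) and hepatocytes (below) for the 20 interferon-stimulated genes and 8 inflammatory mediators expressed in both. In microglia all 20 interferon-stimulated genes lie between -1.94 and -0.50, whereas in hepatocytes they lie between -0.20 and 0.36.

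The most negative interaction of all genes expressed in both was that of Inhba, which encodes a subunit of activin (chromosome 13, 16011851 to 16031621). It stood at 0.16, 0.27 and 0.25 CPM in GW-treated against 4.10, 5.12 and 4.73 CPM in vehicle-treated microglia, and at 194, 185 and 189 CPM in GW-treated against 231, 218 and 225 CPM in vehicle-treated hepatocytes. It fell in both, by 4.34 ± 0.19 in microglia (edgeR adjusted p = 1.19e-16) and 0.25 ± 0.05 in hepatocytes (adjusted p = 0.00502, or 1 in the fit of all 27 libraries), with an interaction of -4.09 ± 0.20 (adjusted p = 1.03e-14). In microglia Inhba met the 1 CPM minimum through the vehicle libraries alone, and its change rests on 21 counts in the GW and 479 counts in the vehicle libraries. Ass1, which makes argininosuccinate in the urea cycle and in arginine recycling, stood at 22.7, 23.8 and 23.4 CPM in GW-treated against 125, 138 and 151 CPM in vehicle-treated microglia, and at 84.1, 73.7 and 83.0 CPM against 84.8, 74.3 and 76.8 CPM in GW- and vehicle-treated hepatocytes. Its interaction was -2.60 ± 0.10 (adjusted p = 1.22e-16). Tlcd1, known to act on membrane lipid composition, had a positive one of 2.26 ± 0.24 (adjusted p = 9.21e-08), with 2.34 ± 0.22 in microglia, at 1.91 to 2.89 CPM with GW and 0.38 to 0.55 CPM with vehicle, and 0.08 ± 0.10 in hepatocytes. Tlcd1 met the minimum in microglia through the GW libraries alone, with 224 counts in the GW and 49 counts in the vehicle libraries.

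Of 15 stress genes expressed in both, 7 rose and 3 fell in microglia, and 6 rose and none fell in hepatocytes. Of all genes expressed in both, 16.9% rose and 15.2% fell in microglia, and 0.784% rose in hepatocytes. A higher interaction was called for 5 of the 15 (3 with plain library totals or without GW library 2 of microglia). A lower one was called for 4, against 10.5% higher and 7.75% lower over all genes expressed in both. Several genes of the endoplasmic reticulum rose in both cell types, and 3 chaperone genes are given first. These were Hspa5 (BiP), by 0.47 ± 0.04 in microglia and 0.27 ± 0.04 in hepatocytes, and Hsp90b1, by 0.85 ± 0.05 and 0.30 ± 0.05. The third was the disulfide isomerase gene Pdia4, by 0.69 ± 0.04 and 0.25 ± 0.04. Their interactions were 0.20 ± 0.05, 0.55 ± 0.07 and 0.44 ± 0.06 (edgeR adjusted p = 0.0125, 4.91e-07 and 2.55e-06). Sdf2l1, also of the endoplasmic reticulum, rose by 0.65 ± 0.05 in microglia and 0.37 ± 0.05 in hepatocytes (interaction 0.29 ± 0.08, edgeR adjusted p = 0.00951). Herpud1 rose by 0.32 ± 0.06 and 0.41 ± 0.05, and its interaction of -0.09 ± 0.08 did not pass (edgeR adjusted p = 0.565). Trib3, a target of the ATF4 and CHOP arm, changed by -1.12 ± 0.06 in microglia (adjusted p = 7.53e-14) and by 0.15 ± 0.06 in hepatocytes (adjusted p = 0.418), and Ddit3 moved in opposite directions.

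Proliferation and oxidative stress genes moved in microglia. Of all genes expressed in both, 16.9% rose and 15.2% fell there, and 0.415% fell in hepatocytes. Of 13 cell cycle genes 9 fell and 1 rose in microglia and none were called in hepatocytes. In hepatocytes edgeR gave 1 an unadjusted p under 0.05, limma-voom and the replicate block each called 1 lower and DESeq2 called 0. Mcm5, of the replicative helicase, changed by -1.05 ± 0.10 and -0.11 ± 0.10 (interaction -0.94 ± 0.14, edgeR adjusted p = 2.04e-05). Pcna, the replication clamp, was the 1 that rose, by 0.44 ± 0.05 in microglia. Of 10 NRF2 targets 3 rose and 6 fell in microglia and none were called in hepatocytes, where 1 had an unadjusted edgeR p under 0.05 and limma-voom and DESeq2 called 0. The 3 rises were 1 with RLE size factors, with plain library totals, in the fit of all 27 libraries or without GW library 1 or 3 or vehicle library 2 of microglia, and the 6 falls were 3 in the fit of all 27 libraries. Hmox1, the haem oxygenase, changed by 0.60 ± 0.05 and -0.17 ± 0.05 (interaction 0.77 ± 0.07, adjusted p = 1.43e-09). Its fall in hepatocytes was called with the replicate block (adjusted p = 0.0059). The quinone reductase gene Nqo1 changed by -1.36 ± 0.11 and -0.11 ± 0.12. Of 9 immediate early genes 2 rose and 7 fell in microglia and 1, Egr1, fell in hepatocytes (3 with the replicate block, 2 without vehicle library 2 of hepatocytes); Dusp1, a phosphatase that ends MAP kinase signals, changed by -1.39 ± 0.05 and 0.03 ± 0.05 (interaction -1.42 ± 0.07, adjusted p = 1.44e-14).

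Other lists held fewer shared genes or smaller changes. Of 13 cytoskeletal genes 5 rose and 3 fell in microglia and 1 fell in hepatocytes, where the replicate block also called 1 higher. Lmna, which forms the nuclear lamina, fell in both, by 0.65 ± 0.05 and 0.27 ± 0.05 (interaction -0.38 ± 0.07, edgeR adjusted p = 0.000208). Of 5 acute phase genes 1 rose and 4 fell in microglia and 1 rose in hepatocytes (2 with the replicate block or with limma-voom). The microglial falls numbered 2 with limma-voom and 1 in the fit of all 27 libraries, where C3, Saa1 and Saa3 did not pass (adjusted p = 0.37, 0.086 and 0.88). The fall of Saa1 was also lost without GW library 3 of microglia (adjusted p = 0.1). The gene that rose in both was Lbp, the endotoxin-binding protein, at 31.1, 31.2 and 30.8 CPM in GW-treated against 5.48, 5.51 and 6.79 CPM in vehicle-treated microglia, and 17.8, 19.1 and 18.4 CPM in GW-treated against 13.4, 14.1 and 13.4 CPM in vehicle-treated hepatocytes (2.39 ± 0.10 and 0.43 ± 0.09, interaction 1.96 ± 0.13, adjusted p = 5.45e-12). Its hepatocyte call did not pass in the fit of all 27 libraries (adjusted p = 0.17). Of 5 plasma lipoprotein genes 4 rose (2 of 3 tested with a minimum of 5 CPM) and 1 fell in microglia and none were called in hepatocytes. Apoc4, 1 of the rises, lay under 1 CPM in vehicle-treated microglia and met the minimum through the GW libraries. Among the 5 was Lrp1, an uptake receptor of Apoe, at 1.01 ± 0.05 and -0.15 ± 0.06 (interaction 1.16 ± 0.08, edgeR adjusted p = 2.58e-11). Of 12 glucose genes 2 rose and 4 fell in microglia and none were called in hepatocytes, and of 9 receptor and cofactor genes 2 rose and 1 fell in microglia and none were called in hepatocytes. Apart from the 4 falls these shares are near those of all genes expressed in both, of which 16.9% rose and 15.2% fell in microglia and 1.2% were called in hepatocytes. The glucose gene falls numbered 2 in the fit of all 27 libraries or without GW library 1 or vehicle library 1 of microglia, and the receptor gene rises 1 in the alternatives that ended the call of Nr1h3. Both xenobiotic genes expressed in both rose in microglia, the conjugate exporter Abcc3 by 1.64 ± 0.05 against 0.01 ± 0.05 in hepatocytes. Of 3 homeostatic microglia genes expressed in both, 1 rose and 1, Tgfbr1, fell in microglia (2 rose without vehicle library 2 of microglia), and the fall of Tgfbr1 in hepatocytes was described above. Neither of 2 MHC class II genes was called in either cell type, and of the bile acid genes 1, Cyp27a1, was expressed in both, at 0.25 ± 0.08 in microglia and 0.06 ± 0.07 in hepatocytes (interaction 0.20 ± 0.11, adjusted p = 0.291). Cyp7a1, the rate-limiting enzyme of bile acid synthesis, had too few counts to be tested.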

How the data were processed

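Bulk RNA was sequenced in 27 libraries, of which the 12 from microglia and hepatocytes treated with GW or vehicle were used. The submitters isolated RNA with a Zymo kit and made cDNA with an oligo-dT SMARTer kit, per the labels' protocols. STAR 2.5.1a, featureCounts 1.4.6-p5 (Subread), bcl2fastq and the build GRCm38 are named in the submitters' processing notes; for the annotation release, the strand setting and multimapping reads, the sources used here name no choice. The authors deposited raw counts per gene, and TPM values, which were used for receptor levels. The count table held 55487 identifiers; 168 stood on several lines with equal counts and were used once. The counts in genes were 31470464 to 40971340 per library, and the floor of 3 counts corresponds to 0.073 to 0.095 CPM.

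Counts were fitted with edgeR 4.0.16 (quasi-likelihood test, robust, TMM scaling, filterByExpr; R 4.3.3), with 1 mean per group; 17830 genes were tested and p-values were adjusted over all of them (Benjamini-Hochberg, threshold 0.05). The interaction is the change with GW in microglia minus that in hepatocytes. The procedure was tested on simulated data. Replicates differed by more than counting noise, so none was counted as a duplicate. Intervals and floors cover counting and replicate error of these libraries only.

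Named genes follow a rule: the 5 largest opposite responses in each sense, the 6 largest interactions in each sense outside these, the 4 largest shared rises and falls, a set of standard LXR genes, and up to 4 members of each of 23 lists by interaction p. Predicted loci were to be left out, but the symbols 9930111J21Rik1 and 9930111J21Rik2 passed that filter. Some genes the rule names are not reported here. Genes named outside the rule were chosen after their values were seen. The comparison, its members and all lists were chosen with earlier results of these data known. Deviations of same-numbered GW and vehicle libraries correlated at 0.179, 0.357 and 0.106 in hepatocytes and at 0.182, 0.051 and 0.154 in microglia. Some differently numbered pairs correlated as much. GW library 3 and vehicle library 1 of hepatocytes gave 0.133, and GW library 2 and vehicle library 3 of microglia gave 0.052. Blocked values stand beside hepatocyte results of named genes and lists where they change a call. Alternatives were other scalings and filters, all 27 libraries, each cell type alone, the replicate block, leaving out each library, limma-voom (limma 3.58.1) and DESeq2 1.42.0. Promoter sequences are from RefSeq (GRCm38.p6).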

Additional observations from a re-analysis of the deposited data

Results flagged for a closer look

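For 28 named genes the change with GW differed between microglia and hepatocytes by the interaction test of the edgeR fit (log2, microglial change minus hepatocyte change); the report gives the values and errors of those it describes. The difference was positive for genes of lipid handling and others: 2.66 for Apoc1, 2.4 for Cd5l, 2.38 for Scd1, 2.3 for Fads2, 2.26 for Tlcd1, 2.25 for Eepd1, 2.14 for Acat3, 1.38 for Apoe, 1.36 for Slc38a3, 1.2 for Fasn, 1.17 for Lpcat3, 0.857 for Adgrg1, 0.801 for Egr1, 0.771 for Hal, 0.67 for Srebf1, 0.324 for Nr1h3 and 0.259 for Abca1. It was negative at -1.1 for Baiap2 and Ddit3, -1.24 for Steap3, -1.74 for Slc4a11, -2.6 for Ass1, -2.84 for Cxcl10, -2.98 for Abcg1, -3.01 for Cxcl13, -3.02 for Ccl5, -3.68 for Acod1 and -4.09 for Inhba. Eepd1, Slc38a3, Adgrg1, Egr1, Hal, Baiap2, Ddit3, Steap3, Slc4a11 and Cxcl10 were called in opposite directions in the 2 cell types. With 3 libraries a group, single libraries were not tested as outliers.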

How the results depend on the processing

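The count of genes called in hepatocytes, 172 in the report, was the least stable: 268 with no filter on low counts, 264 with DESeq2, 88 in the fit of all 27 libraries and 338 with the replicate number as a block. Genes higher in hepatocytes were 72 with all 27 libraries and 186 with the block; genes lower were 112 with no filter, 16 with all 27 libraries, 152 with the block, 105 with limma-voom and 124 with DESeq2. Genes higher in microglia and lower in hepatocytes were 23 with no filter, 2 with all 27 libraries, 36 with the block and 23 with DESeq2, and the reverse 22 with the block. Plain library totals gave 810 higher and 1547 lower interactions, and a test against a 2-fold difference called 81. The causes were not tested. Leaving out 1 library gave 113 to 182 calls in hepatocytes, 77 to 120 higher and 30 to 72 lower; the lower count was 30 without GW library 1 (113 called in all), 38 without GW library 2 and 37 without vehicle library 3 of hepatocytes. It gave 3617 to 4561 calls in microglia (1647 to 2246 higher, 1848 to 2315 lower), 1856 to 2262 interactions (905 to 1226 higher, 840 to 1036 lower), and 3 to 17 and 9 to 14 opposite calls in the 2 senses. The block gave 2802 interactions and, among named genes, ended no call and added 12. No named gene reversed a called direction in any alternative run. Depth limits genes near 1 CPM, such as Abcg1 in hepatocytes.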
